A study of Mus musculus with 10 samples.

Results

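Iron and heme handling in gut macrophages was examined through 9 genes chosen by name, namely Hmox1, Blvrb, Slc48a1, Slc40a1, Fth1, Ftl1, Tfrc, Slc11a1 and Spic. All 9 were among the 17279 genes listed in the table of counts, and all 9 were among the 16949 genes with enough counts to be tested. RNA was sequenced from CX3CR1-GFP+ cells sorted by flow cytometry from the lamina propria, the connective tissue beneath the epithelium, of the whole small intestine of C57BL6/J mice. The libraries came from 5 sham-operated samples and from 5 samples taken after permanent middle cerebral artery occlusion (pMCAO), a model of ischaemic stroke without reperfusion, and all 10 were collected 24 h after surgery. The labels call the samples of a group biological replicates, and the names of replicate 1 in each group mark it as a pool. The gate rests on a reporter of the Cx3cr1 gene, which is active in macrophages and also in monocytes and some dendritic and T cells. Neither the reporter allele and its copy number nor the age of the mice is given in the labels.

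Macrophages take up dying red cells and other cells and so receive iron as heme. Slc48a1 (HRG1) moves heme out of the phagolysosome, Hmox1 (heme oxygenase 1) opens the heme ring and frees its iron, and Blvrb (biliverdin reductase B) is a reductase of heme breakdown products and flavins. The iron is held in ferritin shells built from Fth1 and Ftl1, the heavy and light chains, or leaves the cell through ferroportin, the product of Slc40a1, the known iron exporter of mammalian cells. Tfrc (transferrin receptor 1) brings in iron bound to transferrin, Slc11a1 (NRAMP1) moves divalent metals out of the phagosome, and Spic encodes the transcription factor that red pulp macrophages need for red cell iron recycling.

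Part of this system is controlled after transcription. When iron is scarce, iron regulatory proteins bind a hairpin called the iron-responsive element (IRE), in which a C that stands out of the stem and a loop beginning CAGTG are separated by 5 paired bases. Bound near the start of a transcript the proteins block translation, and bound in the 3′ UTR of Tfrc they protect the transcript from decay. The RNA level of Tfrc can therefore follow cellular iron, whereas the RNA levels of Fth1, Ftl1 and Slc40a1 do not record control of this kind.

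The elements are shown because they are the sequences through which this control is known to act. A search of the annotated mouse transcripts (GENCODE M21 on GRCm38, strand of the gene, letters C, 5 bases, CAGTGN and 5 bases that pair with the first 5) found them in 4 of the 9 genes. The loop of 6 bases is in capitals and each run holds 29 bases, 5′ to 3′.
Fth1, 5′ UTR, exon 1, chr19:9982732-9982760, plus strand: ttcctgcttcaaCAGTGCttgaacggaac
Ftl1, 5′ UTR, exon 1, chr7:45459779-45459807, minus strand: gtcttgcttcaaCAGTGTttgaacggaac
Slc40a1, 5′ UTR, exon 1, chr1:45925465-45925493, minus strand: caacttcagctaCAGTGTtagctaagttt
Tfrc, 3′ UTR, exon 19, chr16:32631219-32631247, plus strand: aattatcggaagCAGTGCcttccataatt
Tfrc, 3′ UTR, exon 19, chr16:32631598-32631626, plus strand: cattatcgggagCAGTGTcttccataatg
Tfrc, 3′ UTR, exon 19, chr16:32631663-32631691, plus strand: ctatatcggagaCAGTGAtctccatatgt
Tfrc, 3′ UTR, exon 19, chr16:32631710-32631738, plus strand: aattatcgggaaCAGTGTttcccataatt

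The same letters were found in the 5′ UTR of 31 of 20916 genes (0.148%) and in the 3′ UTR of 129 of 21039 genes (0.613%). A match is a description of the sequence, and Hmox1, Blvrb, Slc48a1, Slc11a1 and Spic had no match to these letters in their annotated transcripts. On GRCm38 the genes lie at chr8:75093621-75100589 (Hmox1), chr7:27447978-27466144 (Blvrb), chr15:97778520-97792692 (Slc48a1), chr1:45908068-45926523 (Slc40a1), chr19:9980598-9985098 (Fth1), chr7:45457944-45459884 (Ftl1), chr16:32608920-32632794 (Tfrc), chr1:74375195-74386062 (Slc11a1) and chr10:88674772-88685015 (Spic). Their identifiers are ENSMUSG00000005413 for Hmox1, ENSMUSG00000040466 for Blvrb, ENSMUSG00000081534 for Slc48a1, ENSMUSG00000025993 for Slc40a1, ENSMUSG00000024661 for Fth1, ENSMUSG00000050708 for Ftl1, ENSMUSG00000022797 for Tfrc, ENSMUSG00000026177 for Slc11a1 and ENSMUSG00000004359 for Spic.

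Several libraries stood apart before any comparison was made. Total counts were 18894151 to 60665972 in the sham libraries and 6430643 to 28672285 in the pMCAO libraries, a difference of −1.18 in mean log2 counts (two-sided exact permutation test, p = 0.0476, and p of 0.0317 to 0.119 without single libraries). All 10 macrophage markers, among them Csf1r, Adgre1 and C1qb, were present in every library. Their summed level was 2911 to 7959 counts scaled to TMM-adjusted library sizes (CPM) in sham and 4021 to 8586 CPM in pMCAO libraries, lowest in replicate 5 of each group. Immunoglobulin genes, which mark B-lineage cells and above all plasma cells, took 0.524%, 0.847% and 0.781% of counts in sham replicate 4, pMCAO replicate 3 and pMCAO replicate 4, and 4.13% to 16.7% in the other 7 libraries. The female transcript Xist reached 1753 CPM (sham replicate 5) and 4455 CPM (pMCAO replicate 4), while 8 libraries held 1.39 to 4.93 CPM.

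Per transcript length, the ferritin chains were by far the highest of the 9 genes. Levels in TPM, counts divided by the length of each gene's principal transcript and scaled to the same total in each library, averaged 3814 TPM for Fth1, which ranked 27th among all genes with a length, and 1003 TPM for Ftl1, which ranked 99th. Fth1 was above Ftl1 in 10 of 10 libraries and Ftl1 above the next gene in 10 of 10. Slc11a1 (110.1 TPM) and Blvrb (106.1 TPM) came next and could not be ordered, since Slc11a1 was the higher in only 4 of 10 libraries. Blvrb exceeded Hmox1 (51.9 TPM) in 10 of 10 libraries.

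The lower part of the order was less settled. Tfrc averaged 28.6 TPM and was below Hmox1 in 8 of 10 libraries. Slc40a1 averaged 23.9 TPM, with a range from 5.64 to 62.5 TPM, so that it lay below Tfrc in 7 of 10 libraries and above Slc48a1 (13.9 TPM) in 6 of 10. Spic was the lowest on average at 11.2 TPM, yet Slc48a1 was above it in only 7 of 10 libraries. With the length of all annotated exons in place of the principal transcript, Hmox1 moved ahead of Blvrb and Slc48a1 ahead of Slc40a1, and the other places held. Fth1 then averaged 1244 TPM and Ftl1 884 TPM.

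**Figure D1:**
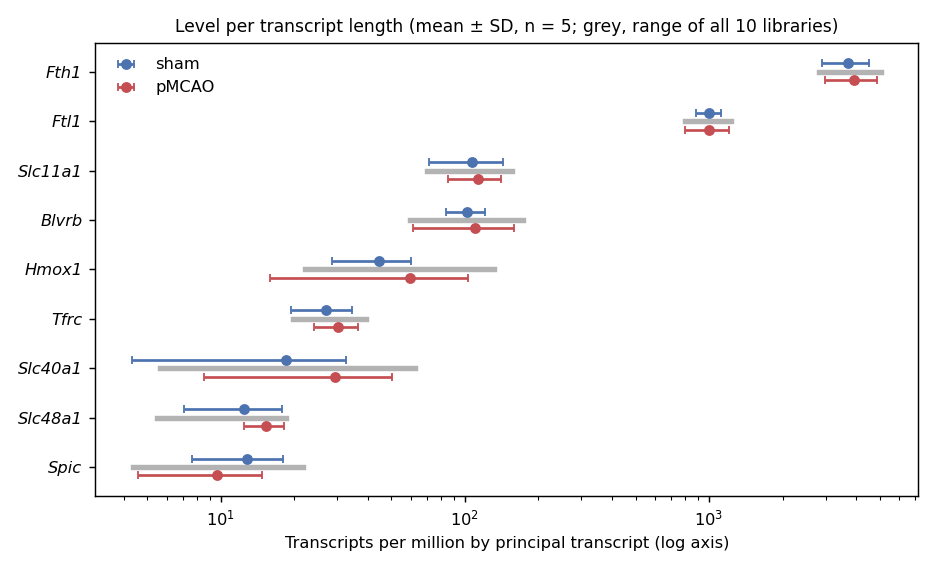
Level per transcript length of the 9 iron and heme genes in TPM on a log axis. Points and bars show the mean ± SD of 5 sham (blue) and 5 pMCAO (red) libraries and grey bars the range over all 10; the ferritin chains Fth1 and Ftl1 lie well above the other 7 genes, and Slc40a1 spans from 5.64 to 62.5 TPM.

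The question put to these samples was whether stroke alters the transcriptome of small-intestinal macrophages. For the 9 iron and heme genes no difference between the groups was detected. With edgeR's quasi-likelihood test and Benjamini-Hochberg adjustment, 0 of the 9 passed a false discovery rate (FDR) of 0.05, against a background of 0% (0 of 16949 genes, lowest FDR 0.922). At an unadjusted p under 0.05 the count was 0 of 9, against 4.71% of all genes (799), and the groups did not overlap in 0 of 9, against 0.985% of all genes (167). DESeq2 called 3 genes in all, none of them a member. The log2 fold change was above 0 for 4 members and below 0 for 5, with a median of −0.0094, against −0.0059 over all genes tested. The p-values describe the spread between these samples, and in bulk RNA a smaller number of cells of a type and less RNA per cell cannot be told apart.

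Among the genes of heme breakdown, Hmox1 was at 40.5, 48.2, 39.0, 91.0 and 30.2 CPM in sham replicates 1 to 5. After pMCAO it was at 46.9, 37.8, 168.5, 52.1 and 19.8 CPM. The groups overlapped, and both the highest and the lowest of the 10 libraries were post-stroke samples, 8.53-fold apart. The group means were 49.8 ± 23.9 CPM (SD, n = 5) in sham and 65 ± 59.1 CPM (SD, n = 5) in pMCAO libraries, a log2 fold change of 0.38 (SE 0.50, 95% interval −0.70 to 1.46, edgeR FDR 0.945). This positive value rested on pMCAO replicate 3, without which it was −0.35 (edgeR FDR 0.876).

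Blvrb was at 90.4, 70.5, 80.8, 89.6 and 40.8 CPM in sham and at 46.5, 49.2, 126.1, 95.1 and 52.9 CPM in pMCAO libraries. Post-stroke samples again held the highest value, whereas the lowest was sham replicate 5. The means of 74.4 ± 20.5 CPM (SD, n = 5) and 73.9 ± 35.3 CPM (SD, n = 5) gave a log2 fold change of −0.01 (95% interval −0.69 to 0.67, edgeR FDR 0.999).

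Slc48a1, the heme exporter of the phagolysosome, was the member with the tightest post-stroke group. It was at 25.2, 31.1, 21.5, 24.0 and 23.0 CPM in pMCAO libraries, against 17.7, 35.99, 20.02, 11.1 and 22.7 CPM in sham libraries. All 5 post-stroke libraries were above the sham mean of 21.5 ± 9.16 CPM (SD, n = 5), and sham replicate 2 was above all of them. The post-stroke mean was 24.97 ± 3.70 CPM (SD, n = 5), and the log2 fold change was 0.22 (95% interval −0.38 to 0.81, edgeR FDR 0.945).

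Slc40a1, the iron exporter, had the largest spread within groups of the 9 genes. It was at 55.8, 15.8, 27.4, 111.0 and 17.6 CPM in sham libraries. After pMCAO it was at 40.0, 40.9, 100.5, 113.0 and 23.2 CPM. The 3 libraries at or above 100.5 CPM were sham replicate 4, pMCAO replicate 3 and pMCAO replicate 4, which were also the 3 with immunoglobulin shares under 1%; the part of other cells in these values was not tested. The log2 fold change was 0.48 (SE 0.57, 95% interval −0.76 to 1.73, edgeR FDR 0.943). It ranged from 0.16 without pMCAO replicate 4 to 1.11 without sham replicate 4, and it was −0.04 without both libraries with high Xist.

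The ferritin chains were measured with the most counts, at least 14983 in a library for Fth1 and 3377 for Ftl1. Fth1 was at 2462, 2391, 2297, 3766 and 1374 CPM in sham and at 2196, 2111, 3821, 2284 and 1649 CPM in pMCAO libraries. Each group held a single high library, at 3766 and 3821 CPM, and the other 8 lay between 1374 and 2462 CPM. The means were 2458 ± 854 CPM (SD, n = 5) and 2412 ± 825 CPM (SD, n = 5), and the log2 fold change was −0.03 (95% interval −0.66 to 0.60, edgeR FDR 0.997). The interval therefore still includes changes of 0.634-fold to 1.52-fold.

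Ftl1 was at 725, 685, 759, 791 and 445 CPM in sham and at 495, 623, 972, 632 and 491 CPM in pMCAO libraries. Sham replicate 5 was lowest and pMCAO replicate 3 highest, as for Fth1. Its log2 fold change was −0.08 (95% interval −0.58 to 0.41, edgeR FDR 0.976). In TPM, the ratio of Fth1 to Ftl1 was 3.70 ± 0.734 (SD, n = 5) in sham and 3.90 ± 0.468 (SD, n = 5) in pMCAO libraries, within a range of 3.15 to 4.96. This ratio depends on the length used, and with the length of all annotated exons it was 1.37 ± 0.272 (SD, n = 5) and 1.45 ± 0.174 (SD, n = 5). The ferritin copies Fth-ps2 and Ftl2, listed as separate genes, held 0.0646% and 0.236% of the counts of Fth1 and Ftl1. How many reads match a gene and its copy alike was not measured.

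Tfrc, the only member with elements in its 3′ UTR, was also the member with the smallest spread within groups. It was at 97.3, 80.6, 71.8, 103.5 and 92.7 CPM in sham libraries and at 107.3, 139.6, 89.3, 72.1 and 79.2 CPM in pMCAO libraries. The groups overlapped, with the highest value in pMCAO replicate 2. The means were 89.2 ± 12.8 CPM (SD, n = 5) and 97.5 ± 27.0 CPM (SD, n = 5), and the log2 fold change was 0.13 (95% interval −0.30 to 0.55, edgeR FDR 0.953). Its interval, from 0.814-fold to 1.47-fold, was the narrowest of the 9. Without pMCAO replicate 2 the log2 fold change was −0.04.

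Slc11a1, the phagosomal metal transporter, was at 172, 151, 204, 288 and 78.1 CPM in sham libraries. After pMCAO it was at 177, 153, 255, 166 and 110 CPM. Both extremes were sham libraries, replicates 4 and 5, and the log2 fold change was −0.05 (95% interval −0.72 to 0.62, edgeR FDR 0.989). Removal of sham replicate 4 gave 0.17 and removal of sham replicate 5 gave −0.25.

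Spic was the member with the lowest counts, and the only 1 with a log2 fold change of the same sign in all 24 alternative fits. It was at 13.97, 18.2, 12.6, 30.7 and 7.15 CPM in sham libraries and at 6.45, 6.24, 24.1, 12.1 and 8.05 CPM in pMCAO libraries. A single post-stroke library, replicate 3, was above the sham mean of 16.5 ± 8.85 CPM (SD, n = 5), but the groups overlapped. The log2 fold change was −0.54 (SE 0.45, 95% interval −1.52 to 0.44, edgeR FDR 0.922), which did not exceed the spread between libraries. It lay between −1.01 (without pMCAO replicate 3) and −0.20 (without sham replicate 4). In pMCAO replicate 1, the smallest library, Spic had 44 counts, for which counting alone gives an error of 15.1%.

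**Figure D2:**
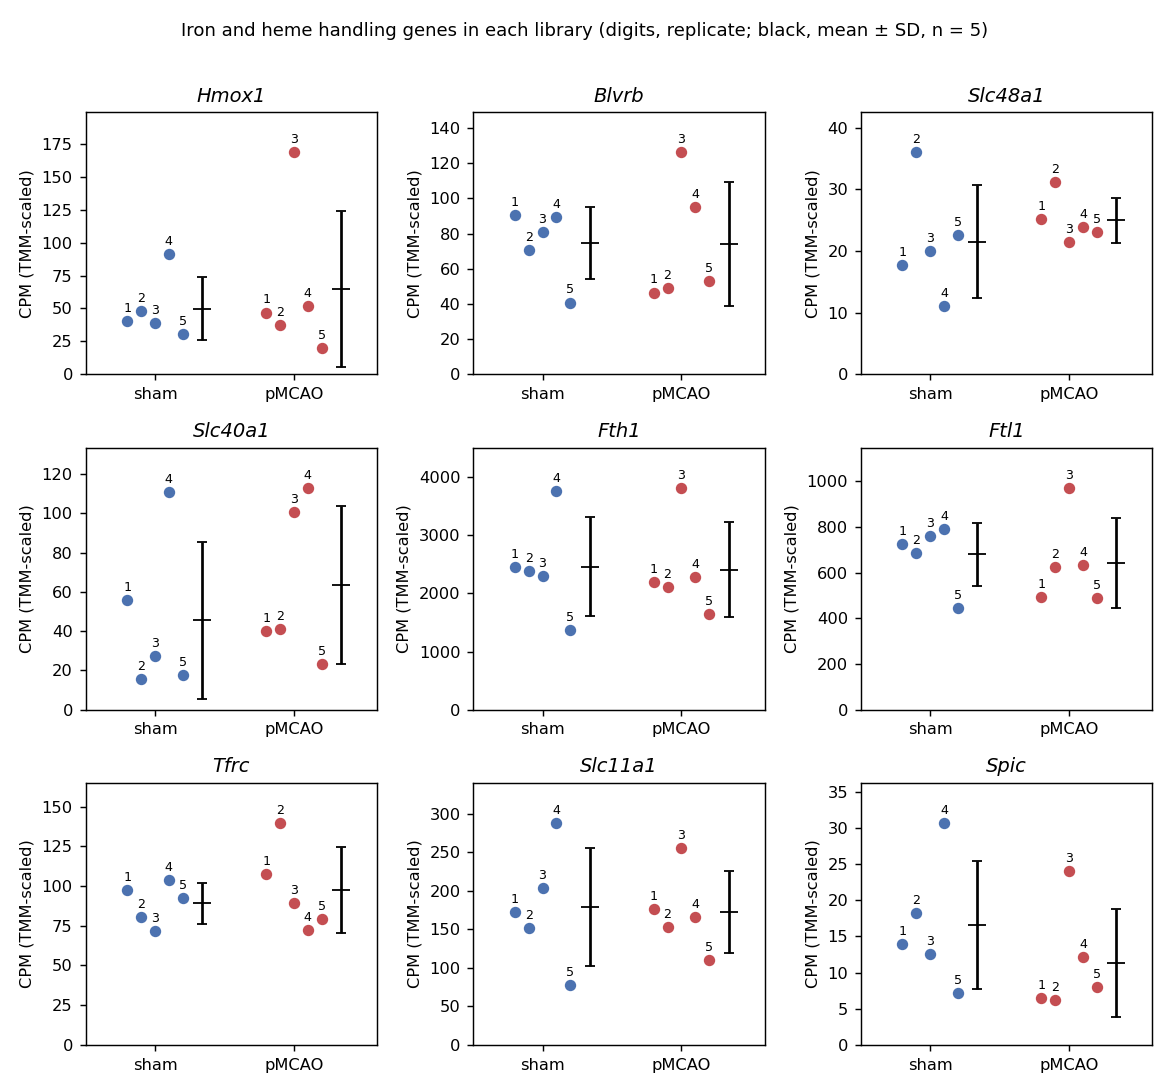
CPM (scaled by TMM) of each of the 9 genes in 5 sham (blue) and 5 pMCAO (red) libraries on linear axes from 0. Digits give the replicate and black bars the mean ± SD of 5 libraries; the groups overlap in all 9 panels, and sham replicate 4 and pMCAO replicate 3 stand high for Hmox1, Fth1, Slc11a1 and Spic.

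**Figure D3:**
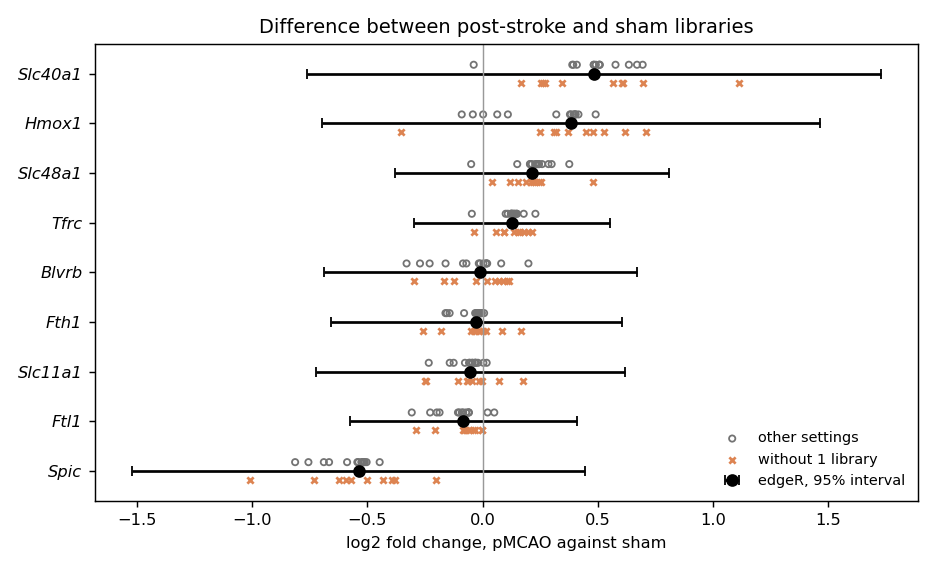
The log2 fold change of pMCAO against sham libraries for each of the 9 genes, with a 95% interval computed from edgeR's F statistic (black). Open circles give the other settings and crosses the fits without 1 library; all 9 intervals include 0, and the interval of Tfrc (−0.30 to 0.55) is the narrowest.

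For each of the 9 genes the SD of log2 CPM within groups, taken over both groups, was larger than the size of the log2 fold change. For Slc48a1 the pMCAO group alone had an SD of 0.202, below its log2 fold change of 0.215. The SD of log2 CPM within groups was 1.08 for Slc40a1, 0.90 for Hmox1 and 0.79 for Spic, larger than in 94.8%, 92.7% and 90.6% of the 9046 genes at a mean of 10 CPM or more. Tfrc had an SD of 0.31 and Ftl1 of 0.37, against a median of 0.37 over those genes. Sham replicate 4 and pMCAO replicate 3 each ranked among the 2 highest libraries for 6 of the 9 genes, and sham replicate 5 among the 2 lowest for 6. In that order, these libraries had TMM factors of 0.842, 0.876 and 1.275, the 2 lowest and the highest, and a low factor raises every gene of a library. As shares of total counts, without TMM, Fth1 and Ftl1 together took 0.383%, 0.42% and 0.232% there, still the 2 highest and the lowest. The part of TMM scaling in the shared spread of the 9 genes was not tested.

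Across the 10 libraries, 7 of the 9 genes varied together in most of their pairs, while no pair with Tfrc or Slc48a1 passed the test. Pearson's r of log2 CPM was computed for 36 pairs, with two-sided permutation tests of 100000 resamples and Benjamini-Hochberg adjustment over the 36. At an adjusted p of 0.05, 18 pairs passed by Pearson's r and 8 by Spearman's rho, the 8 being among the 18, and all 18 were positive. The count was 3 without pMCAO replicate 3 and 7 without both libraries with high Xist. The share of such pairs among other genes of these libraries was not computed, so the 18 are not shown to be particular to these genes. The closest pair was Fth1 and Slc11a1 (r = 0.95, permutation p = 3e-04, adjusted p = 0.0054, rho = 0.78, permutation p = 0.0103, adjusted p = 0.0464). Without the 2 libraries farthest from the median of Fth1, pMCAO replicate 3 and sham replicate 5, r was 0.93.

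The ferritin chains followed each other, with r = 0.89 (permutation p = 0.00023, adjusted p = 0.0054) and rho = 0.95 (permutation p = 0.00012, adjusted p = 0.00432), and r was 0.75 without the 2 farthest libraries. Hmox1 and Fth1 gave r = 0.90 (permutation p = 0.00113, adjusted p = 0.0102) and rho = 0.83 (permutation p = 0.00462, adjusted p = 0.0333), with r again 0.90 without pMCAO replicates 3 and 5. Both Fth1 and Spic, and Blvrb and Ftl1, also passed on both measures, with r of 0.84 and 0.90. For Spic and Fth1 the value without the 2 farthest libraries was 0.82, and for Blvrb and Ftl1 it was 0.78. For deviations from the group means, r was 0.95 for Fth1 and Slc11a1, 0.90 for Fth1 and Ftl1 and 0.90 for Hmox1 and Fth1.

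Slc40a1 was tied to the others less firmly. The 3 pairs among these 7 genes that did not pass were those of Slc40a1 with Blvrb, Ftl1 and Spic. Its r was 0.73 with Fth1, 0.72 with Slc11a1 and 0.70 with Hmox1 (adjusted permutation p = 0.0365 for all 3), and none of the 3 passed by Spearman's rho (adjusted permutation p of 0.227, 0.121 and 0.137). Tfrc had r between −0.38 with Blvrb and 0.12 with Slc40a1. Slc48a1 had an r below 0 with every gene but Tfrc, from −0.55 with Slc40a1 to −0.32 with Hmox1, and no pair with Tfrc or Slc48a1 passed (adjusted permutation p of 0.165 or more). For deviations from the group means, Slc48a1 and Slc40a1 gave r = −0.74 (adjusted permutation p = 0.0191). Their r of log2 CPM was −0.55, and −0.04 without sham replicates 4 and 2, the libraries farthest from the median of Slc48a1. The r of deviations was not computed without those libraries.

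**Figure D4:**
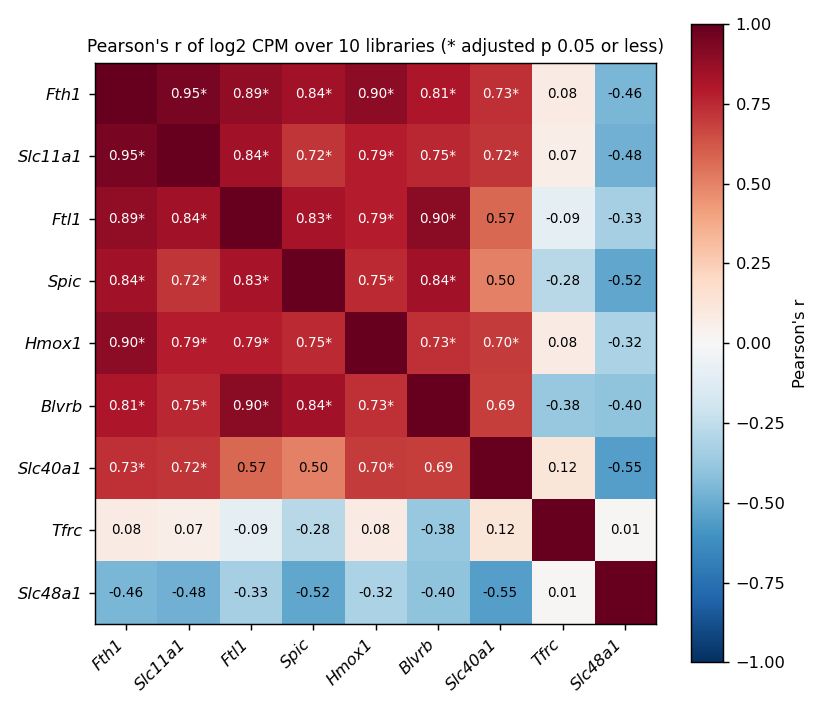
Pearson's r of log2 CPM over all 10 libraries for the 36 pairs of iron and heme genes, from −1 (blue) to 1 (red). Asterisks mark the 18 pairs with an adjusted permutation p of 0.05 or less; the 7 genes at the upper left correlate with each other, whereas Tfrc and Slc48a1 do not join them.

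The level of macrophage transcripts differed between libraries and passed the test with 4 of the 9 genes. In sham replicate 5 and pMCAO replicate 5 the 10 macrophage markers summed to 2911 and 4021 CPM, against 4964 to 8586 CPM in the other 8 libraries, and these 2 libraries were the lowest for Fth1 and Slc11a1. Relations of members were computed with 4 library measures, after the values by library had been seen. The measures were the immunoglobulin share and the mean log2 levels of the macrophage, plasma cell and proliferation markers. Of the 36 relations, 5 passed an adjusted permutation p of 0.05 by Pearson's r and 0 by Spearman's rho. The mean log2 level of the macrophage markers gave r = 0.90 with Slc11a1 (permutation p = 0.00012, adjusted p = 0.00432, rho = 0.82, adjusted p = 0.0986), and r was 0.67 without its 2 farthest libraries. With Fth1, Slc40a1 and Blvrb it gave r of 0.81, 0.79 and 0.79 (adjusted permutation p = 0.0467 for each, and adjusted p of 0.143, 0.0986 and 0.0986 by Spearman's rho). Without the 2 farthest libraries these were 0.50, 0.77 and 0.67. The other 5 genes did not pass, with r of 0.77 for Ftl1, 0.65 for Hmox1, 0.53 for Spic, −0.05 for Tfrc and −0.40 for Slc48a1 (adjusted permutation p of 0.054, 0.145, 0.223, 0.917 and 0.400).

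Scaled to the 10 macrophage markers in place of all genes, 0 of the 36 pairs passed. The r of Fth1 and Slc11a1 was then 0.78, that of Fth1 and Ftl1 0.74 and that of Slc40a1 and Fth1 0.03. This scaling moved the median log2 fold change of all genes to −0.18. Relative to that median the 9 genes ranged from −0.50 (Spic) to 0.58 (Slc40a1), with Fth1 at 0.03, Ftl1 at −0.04 and Tfrc at 0.14, and the FDR was 1.00 for each by edgeR.

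The immunoglobulin share passed with 1 of the 9 genes, and by Pearson's r alone. Its r was −0.80 with Slc40a1 (permutation p = 0.00648, adjusted p = 0.0467), but rho was −0.64 (adjusted permutation p = 0.224), and without the 2 farthest libraries r was −0.61. With Slc48a1 it was positive, r = 0.70 (permutation p = 0.0183, adjusted p = 0.0731, rho = 0.61, adjusted p = 0.237). All 6 plasma cell markers, among them Jchain and Igha, were detected in each library, with a summed level of 3357 to 95690 CPM in sham and 4366 to 110900 CPM in pMCAO libraries. Their mean log2 level passed with 0 of the 9 genes (adjusted permutation p of 0.0731 or more by Pearson's r). The r was −0.74 with Slc40a1 and 0.71 with Slc48a1. The part of plasma cell RNA in the levels of the 9 genes was not tested.

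**Figure D5:**
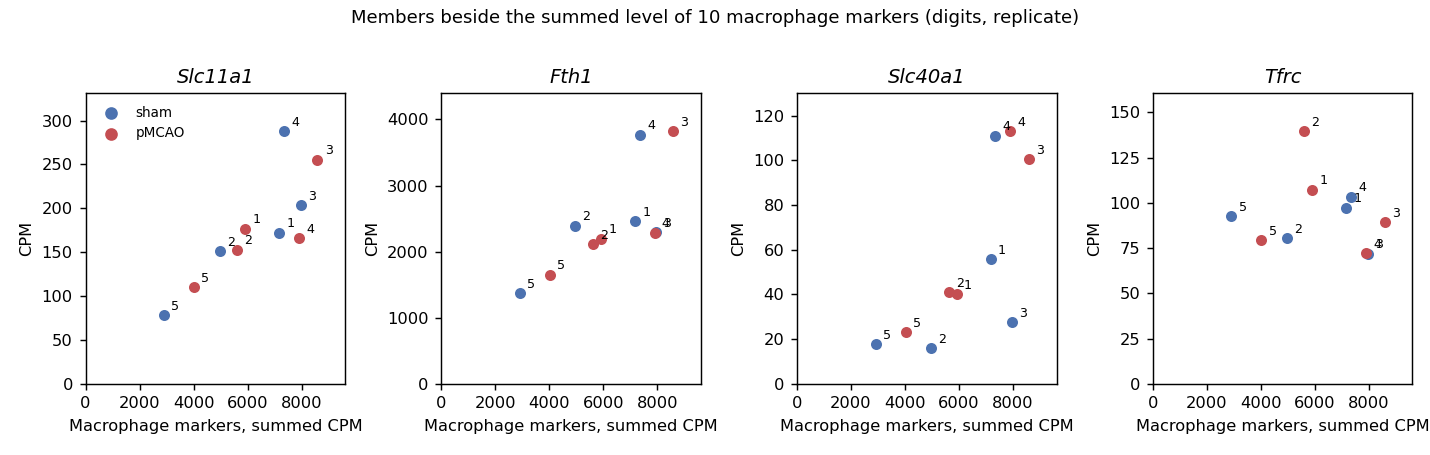
CPM of Slc11a1, Fth1, Slc40a1 and Tfrc (y axes, linear from 0) against the summed CPM of 10 macrophage markers (x axes) in 5 sham (blue) and 5 pMCAO (red) libraries, with digits for the replicate. Slc11a1 and Fth1 are lowest in the 2 libraries with the lowest marker sums, 2911 and 4021 CPM, whereas Tfrc shows no such order.

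Red cell RNA was scarce in all libraries. Of 8 erythroid markers, 3 were listed, namely the adult beta-globins Hbb-bs and Hbb-bt and the erythroid heme synthesis gene Alas2. They summed to 1.07 to 22.1 CPM in sham and 2.44 to 6.96 CPM in pMCAO libraries, the highest in sham replicate 4, and Hbb-bs was at 0 in 2 libraries and Hbb-bt in 3. Monocyte markers (5 of 5 listed, among them Ccr2 and Ly6c2) summed to 607 to 2281 CPM and 600.4 to 1582 CPM. Epithelial markers (10 of 10) summed to 496 to 1205 CPM and 181 to 1567 CPM. Neutrophil markers (4 of 5) reached at most 153 CPM, with S100a8 at 0 in 4 libraries, T cell markers (6 of 6) at most 410.1 CPM, dendritic cell markers (5 of 5) at most 370.5 CPM and proliferation markers (8 of 8) at most 594 CPM. A single gene was the largest part of the first 2 sums. Csf3r averaged 87.5 CPM in sham and 89.3 CPM in pMCAO libraries, and Cd4 averaged 147.7 and 133.7 CPM. For comparison, Cd3e averaged 17.5 and 16.1 CPM. By list, 2 of 5 monocyte genes and 1 of 8 proliferation genes had an unadjusted p under 0.05, against 4.71% of all genes tested. The median log2 fold changes of these 2 lists were −0.13 and −0.33, and 0 genes of any list passed the FDR. The part of these cells in the members' levels was not tested.

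For each member the genes most alike across the 10 libraries were taken among the genes at 10 CPM or more, as a description. The 2 with the highest r were 2210018M11Rik and Ankrd26 for Hmox1 (0.94 and 0.94), Tmem159 and Fcrls for Blvrb (0.92 and 0.92), Zfp260 and Ube2g1 for Slc48a1 (0.96 and 0.94) and Vav2 and Ptprm for Slc40a1 (0.99 and 0.97). Fth1 was followed by Pld4 and Pirb (0.97 and 0.96), Ftl1 by Anxa5 and Coro1b (0.96 and 0.96), and Slc11a1 by Cgrrf1 and Pld4 (0.98 and 0.97). For Spic they were Skiv2l and Ptprv (0.94 and 0.93). Tfrc had the least close neighbours, Ogdh and Kiz (0.87 and 0.85). Pld4 was the gene shared by Fth1 and Slc11a1.

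The wider pathway was described with 52 other genes of iron and heme handling and 7 targets of NRF2, the oxidative stress factor that also drives Hmox1. Of the 52, 41 were listed and tested. Of these 41, 20 had a log2 fold change above 0 and 21 below, and the median was −0.01. An FDR of 0.05 was passed by 0 of them and an unadjusted p under 0.05 by 3, against 0% and 4.71% of all genes tested. Of the 7 NRF2 targets, 0 passed either limit, 3 lay above 0 and 4 below, and the median was −0.06. The groups did not overlap in 0 of the 41 and 0 of the 7, against 0.985% of all genes tested. Values above 0 were found for 49.4% of all genes tested. By role they were found for 5 of 5 genes of iron regulation (Aco1, Ireb2, Fbxl5, Hfe and Bmp6). For heme synthesis it was 2 of 8, for mitochondrial iron 1 of 6 and for iron uptake 3 of 5. Iron storage, heme transport and heme uptake had 2 of 3 each, and heme breakdown and iron export 1 of 2 each. Iron sequestration had 1 of 1. Bach1, Nfe2l2 and Keap1, which are 2 transcription factor genes and an adaptor of NRF2, had 0 of 3. Differences between roles were not tested. Bmp6 was near the floor, at 0.673 CPM in sham and 1.72 CPM in pMCAO libraries on average (95% interval of its log2 fold change −0.79 to 3.47).

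The 3 genes with the smallest p on the higher side were Fbxl5, Lrp1 and Abcg2. Fbxl5, which tags iron regulatory protein 2 for destruction when iron is plentiful, was at 74.5, 60.3, 49.7, 90.5 and 67.0 CPM in sham and at 97.5, 65.3, 114.3, 117.3 and 93.2 CPM in pMCAO libraries. The groups overlapped through pMCAO replicate 2, and the other 4 pMCAO libraries lay above every sham library. Its log2 fold change was 0.51 (95% interval 0.07 to 0.95, edgeR FDR 0.922). Lrp1, a receptor that takes up heme bound to hemopexin, gave 0.45 (95% interval 0.01 to 0.90, edgeR FDR 0.922), from 154.9 ± 33.8 to 212 ± 50.3 CPM (SD, n = 5). Abcg2, a transporter of porphyrins and heme, gave 0.52 (95% interval −0.01 to 1.04, edgeR FDR 0.922).

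The 3 on the lower side were Uros, Keap1 and Hp. Uros, an enzyme of heme synthesis, was at 15.0 ± 3.82 CPM (SD, n = 5) in sham and 9.65 ± 3.45 CPM (SD, n = 5) in pMCAO libraries, a log2 fold change of −0.63 (95% interval −1.25 to −0.02, edgeR FDR 0.922). Keap1, the adaptor that holds NRF2 in check, gave −0.50 (95% interval −1.01 to 0.01, edgeR FDR 0.922). Hp (haptoglobin) gave −1.17, from 6.89 ± 2.77 to 3.01 ± 3.86 CPM (SD, n = 5, 95% interval −2.61 to 0.28, edgeR FDR 0.922). Fbxl5, Lrp1 and Uros were the 3 of the 41 with an unadjusted p under 0.05, and none of these 6 genes passed the adjusted limit.

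Among the most abundant genes of each role by TPM, Cd163 and Cp varied as widely as Slc40a1. Cd163, the haemoglobin-haptoglobin receptor, was at 355, 84.6, 138, 558 and 103 CPM in sham libraries. After pMCAO it was at 190.3, 267, 524, 1265 and 249 CPM, and its log2 fold change was 1.01 (95% interval −0.34 to 2.36, edgeR FDR 0.922). Its 3 highest libraries were those of Slc40a1. Cp (ceruloplasmin), a ferroxidase that works with ferroportin, was at 132, 51.1, 97.4, 188 and 51.7 CPM in sham and at 114.0, 66.9, 251, 407 and 100.3 CPM in pMCAO libraries, with a log2 fold change of 0.85 (95% interval −0.24 to 1.95, edgeR FDR 0.922). The highest values of Cp were again in sham replicate 4 and pMCAO replicates 3 and 4.

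The remaining most abundant genes gave smaller values. Nfe2l2, which encodes NRF2 (210.2 TPM), had a log2 fold change of −0.03, and Prdx1, a peroxiredoxin and NRF2 target (581 TPM), of −0.31. Pcbp2, an iron chaperone that loads ferritin (129.8 TPM), gave 0.26, and Trf, which encodes transferrin (65.6 TPM), gave 0.01. Iscu, the scaffold for iron-sulphur clusters (60.7 TPM), and Blvra, the main biliverdin reductase (54.4 TPM), gave −0.06 and −0.14. Values for Pgrmc1, a heme-binding membrane protein (28.9 TPM), Ppox of heme synthesis (25.1 TPM) and Mcoln1, a lysosomal cation channel (20.8 TPM), were 0.27, −0.21 and −0.19. The FDR of these 9 genes was 0.922 or more by edgeR.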

How the data were processed

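For each of the 10 libraries the authors deposited counts of reads by gene as whole numbers, beside their own CPM values (counts scaled to a library's total), and the deposited table also holds columns of their comparison (log2 values, a mean expression, p-values and FDR), which were not used. Per the labels, libraries were made from 2.0 ng of total RNA after removal of ribosomal RNA (Trio RNA-sequencing kit) and read as 100 base pairs from both ends. The submitters' processing notes name STAR, featureCounts, limma and GRCm38/mm10. The annotation release, strand setting and low-count limit are not given in the sources used here, although every listed gene had at least 10 counts in at least 2 libraries.

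Counts were filtered with filterByExpr (16949 of 17279 genes kept), scaled by TMM and tested in edgeR 4.0.16 (R 4.3.3) by quasi-likelihood over both groups, without covariates. P-values were adjusted by Benjamini-Hochberg over all genes tested, with calls at an FDR of 0.05. The test was tried on simulated counts first. Correlations used log2 CPM with a prior count of 2. Marker means used log2(CPM + 1). TPM used GENCODE M21 lengths, found for 17193 genes. Elements were searched in the GENCODE M21 transcripts.

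The members and gene lists were chosen with earlier results of these data known. Named were the 9 members, the other iron, heme and NRF2 genes with the 3 smallest p in each direction and the most abundant by TPM of each role, the 2 genes most like each member, markers of other cells and the ferritin copies. Of the other iron genes, 11 were not listed in the table used here. Alternatives were DESeq2 1.42.0, limma-voom with and without quality weights (limma 3.58.1), 1 surrogate variable (sva 3.50.0), other scalings and filters, a length offset, a replicate block, and leaving out libraries. No library was a repeat of another: the smallest chi-square per degree of freedom between any pair was 39.1.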

Additional observations from a re-analysis of the deposited data

Results flagged for a closer look

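A library was taken as distant from its group of 5 when its gap to the nearest library exceeded 0.71 of the range within that group. Of 40 groups checked (the 9 genes, 9 marker lists, the immunoglobulin share and total counts, in each group of 5 libraries), 1 was so, where chance flags about 1 in 20, or 2 of the 40. Ftl1 was low in sham replicate 5 (445 CPM against 685 to 791 CPM in the other 4 sham libraries), with a gap of 0.751 of the range on the log2 scale. This library had high Xist and the lowest sum of macrophage markers (2911 CPM), and their part in the low value was not tested.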

How the results depend on the processing

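Over 24 alternative fits for each of the 9 genes, 186 of 216 log2 fold changes kept their direction and 30 did not, Blvrb in 12 of its 24, and 0 passed an FDR of 0.05 (lowest 0.507). The counts of members and of other iron and heme genes called were 0 in all 24, and DESeq2 alone called genes of the whole table (3). Of the 30, 14 came from leaving out 1 library (6 for Blvrb, 4 for Fth1, 2 for Slc11a1 and 1 each for Hmox1 and Tfrc) and 1 from the block. The other 15 were 0.0154 (DESeq2, and DESeq2 size factors), 0.0196 (upper-quartile scaling), 0.0033 (more than 1 CPM in at least 5 libraries), 0.0804 (length offset) and 0.20 (without both pooled libraries) for Blvrb. For Hmox1 they were −0.0426 (quality weights) and −0.0907 (surrogate variable), for Slc11a1 0.0032 (limma-voom), for Slc48a1 −0.0498 and for Tfrc −0.0469 (macrophage markers). For Ftl1 they were 0.0504 (length offset) and 0.0214, and for Fth1 0.0063 (the last 2 without both pooled libraries), and for Slc40a1 −0.0388 (without both libraries with high Xist).

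Without single libraries the log2 fold change ranged from −0.35 to 0.71 for Hmox1, −0.30 to 0.12 for Blvrb, 0.04 to 0.48 for Slc48a1, 0.16 to 1.11 for Slc40a1, −0.26 to 0.17 for Fth1, −0.29 to −0.0011 for Ftl1, −0.0382 to 0.21 for Tfrc, −0.25 to 0.17 for Slc11a1 and −1.01 to −0.20 for Spic. The count of 18 correlated pairs became 0 with scaling to macrophage markers and 7 without both libraries with high Xist. Without single libraries it ranged from 3 (pMCAO replicate 3) to 21, with 10 without sham replicate 4, 9 without sham replicate 5 and 10 without pMCAO replicate 5. Over these alternatives the 18 pairs gave 270 values of r, of which 184 passed, 86 did not and 0 turned negative. The causes were not tested. The difference in total counts was −0.93 without both pooled libraries (exact permutation p = 0.143) and −1.42 to −0.88 without single libraries (exact permutation p of 0.0317 to 0.119).

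With the replicate number as a block, 0 members passed, Slc11a1 changed sign (0.0174) and Hmox1 was at 0.06. The deviations of same-numbered libraries correlated at 0.107, 0.46, −0.02, 0.343 and 0.449 for replicates 1 to 5. Of the 10 libraries, 7 were closest to their own number in the other group, a hint from the data and not the design. Since 4 of the 5 pairs but not replicate 3 exceeded 0.1, a limit set here, the numbers were not taken to pair the samples. A pairing by number was not excluded. The main log2 fold change of Hmox1 was 0.38, and the block moved the count of unadjusted p under 0.05 from 799 to 1303. It moved the lowest FDR of all genes from 0.922 to 0.173 by edgeR, with 0 genes called. Depth limited Spic most.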
